A study of Mus musculus with 48 samples.

Results

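The epithelial keratins described here are 9 genes of mouse kidney slices: Krt5, Krt7, Krt8, Krt14, Krt17, Krt18, Krt19, Krt20 and Krt23. They were taken by symbol from the 55487 gene rows of the count table, and each symbol matched a single row. All 9 had at least 1 count somewhere, but Krt14 had only 3 counts over all 48 libraries. The study cultured slices of male kidneys outside the body and measured their mRNA by RNA-seq. Slices came from 2 inbred strains, C57BL/6J (C57 below) and DBA/2J (DBA below), which carry no transgene or induced mutation in the labels. Each strain was kept under 8 conditions with 3 libraries each: untreated control, tunicamycin or cyclosporin A, each for 6 h or 24 h, and 2 oxygen conditions of 24 h. Tunicamycin blocks N-linked glycosylation in the endoplasmic reticulum, and cyclosporin A is an immunosuppressant that inhibits calcineurin and is toxic to the kidney. The oxygen conditions were normoxia, labelled an ischemia model, and normoxia followed by hyperoxia, labelled a reperfusion model. Doses, animal ages, the oxygen level of the controls and the time of the oxygen switch are not given in the labels. A replicate number is labelled a biological replicate, but which mouse each slice came from is not stated, so p-values measure the spread between these libraries.

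Keratins are the intermediate filament proteins of epithelial cells. A filament is built from pairs of a type I (acidic) and a type II (basic) keratin, and a keratin without a partner is broken down. Krt8 (type II) and Krt18 (type I) are the pair of simple, single-layered epithelia such as the kidney tubule, where Krt7 and Krt19 are found mainly in ducts and collecting ducts and rise in tubules after injury. Krt20 is best known from the gut lining and the surface cells of the urothelium and is a marker of injured tubules, while Krt5, Krt14 and Krt17 are keratins of basal and stratified epithelia. Krt23 is a less studied type I keratin.

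Total counts ran from 5619309 to 25137581 per library. The shallowest was replicate 2 of DBA under normoxia-hyperoxia, and the next had 12384733. Levels are in CPM, a gene's count per 1000000 counts of its library. Different genes are ranked after division by transcript length in kilobases (length-scaled CPM). Ratios of counts between genes are given without division by length. Changes are log2 fold changes from edgeR, averaged over both strains unless a strain is named. A gene was called at a Benjamini-Hochberg adjusted p under 0.05 over all genes tested. Overlap of libraries between groups was read for the named genes only, so no share of all genes stands beside it. The titles place controls and drugs under nephrotoxicity and the oxygen conditions under ischemia or reperfusion. Controls and drugs are called the first study arm below. No control carries an oxygen title, so oxygen condition and study arm cannot be told apart where an oxygen condition is compared with a control. Normoxia and normoxia-hyperoxia carry different titles, and no label states that they were run together. Library names start with a number that differs between 6 h, 24 h, normoxia and normoxia-hyperoxia. Its meaning is not given, so whatever it marks cannot be told apart from these conditions.

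By GENCODE M21 on GRCm38, the 5 type I genes Krt20, Krt23, Krt19, Krt14 and Krt17 lie in the type I cluster on chromosome 11, all on the minus strand. Krt20 spans chr11:99428403-99438150, Krt19 chr11:100140810-100148665 and Krt17 chr11:100256217-100261029. The type II genes Krt7 (chr15:101411043-101430313), Krt5 (chr15:101707070-101712898) and Krt8 (chr15:101996698-102004482) lie on chromosome 15. Krt18 (chr15:102028180-102032027) is the type I gene that sits among them, 23698 bases from Krt8 and pointing the other way. A processed pseudogene, Krt8-ps on chromosome 7, had 2434 counts in all against 1124885 for Krt8, and how reads shared by the 2 were counted is not given in the sources used here.

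Promoters are shown for 4 members: the filament pair Krt8 and Krt18, Krt7, which fell least of the abundant members under normoxia, and Krt20, which fell strongly. RefSeq promoter windows on GRCm38.p6 were matched for 7 of the 9 members, and each holds 250 bases before the annotated start and 50 after it, printed 5′ to 3′ on the gene's own strand. Capitals mark any match on either strand to TGANTCA (an AP-1 motif), GGGCGG (the GC box), TATAAA (the TATA motif), or ACGTG or GCGTG (the core bound by hypoxia-inducible factors).
Krt8, chr15:102004293-102004592, minus strand: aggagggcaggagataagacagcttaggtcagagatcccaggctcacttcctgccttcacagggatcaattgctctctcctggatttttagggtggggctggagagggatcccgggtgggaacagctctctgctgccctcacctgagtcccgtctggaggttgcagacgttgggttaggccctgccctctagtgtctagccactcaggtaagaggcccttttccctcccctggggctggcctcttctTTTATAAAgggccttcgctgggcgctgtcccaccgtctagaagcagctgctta
Krt18, chr15:102027966-102028265, plus strand: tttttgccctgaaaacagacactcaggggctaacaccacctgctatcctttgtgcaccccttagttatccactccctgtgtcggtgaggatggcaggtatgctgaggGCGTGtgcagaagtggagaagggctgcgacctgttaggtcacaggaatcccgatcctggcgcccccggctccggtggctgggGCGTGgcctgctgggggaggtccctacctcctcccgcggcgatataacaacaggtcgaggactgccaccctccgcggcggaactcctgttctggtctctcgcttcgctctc
Krt7, chr15:101412153-101412452, plus strand: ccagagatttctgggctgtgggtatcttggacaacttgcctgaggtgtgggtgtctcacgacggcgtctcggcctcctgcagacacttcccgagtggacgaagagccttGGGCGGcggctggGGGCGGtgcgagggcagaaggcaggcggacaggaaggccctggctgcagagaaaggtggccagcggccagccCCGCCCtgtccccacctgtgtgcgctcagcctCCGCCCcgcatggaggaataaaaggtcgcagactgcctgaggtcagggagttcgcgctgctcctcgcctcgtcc
Krt20, chr11:99438104-99438403, minus strand: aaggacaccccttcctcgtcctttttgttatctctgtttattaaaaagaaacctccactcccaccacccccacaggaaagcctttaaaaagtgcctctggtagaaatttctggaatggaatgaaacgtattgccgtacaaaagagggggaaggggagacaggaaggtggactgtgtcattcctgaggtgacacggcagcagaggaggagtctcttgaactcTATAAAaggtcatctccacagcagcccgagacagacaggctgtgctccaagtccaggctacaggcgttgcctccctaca
The Krt8 window holds TATAAA together with an overlapping match on the other strand, and the Krt20 window holds it once. Krt18 has 2 matches to the hypoxia-inducible factor core and no TATAAA, and Krt7 has 4 GC boxes. The RefSeq start of Krt7 lies 1360 bases inside the GENCODE gene span given above, so its window is within that span. The windows of the paired genes Krt8 and Krt18 thus held none of these motifs in common. No AP-1 match was found in any of the 7 windows. Among 32851 promoter windows of the same length, 7.81% hold the AP-1 motif, 35.7% the GC box, 13.6% TATAAA and 43.8% the hypoxia-inducible factor core. A match is a run of letters and not a bound site, and no match says only that these letters are not in this window.

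**Figure D1:**
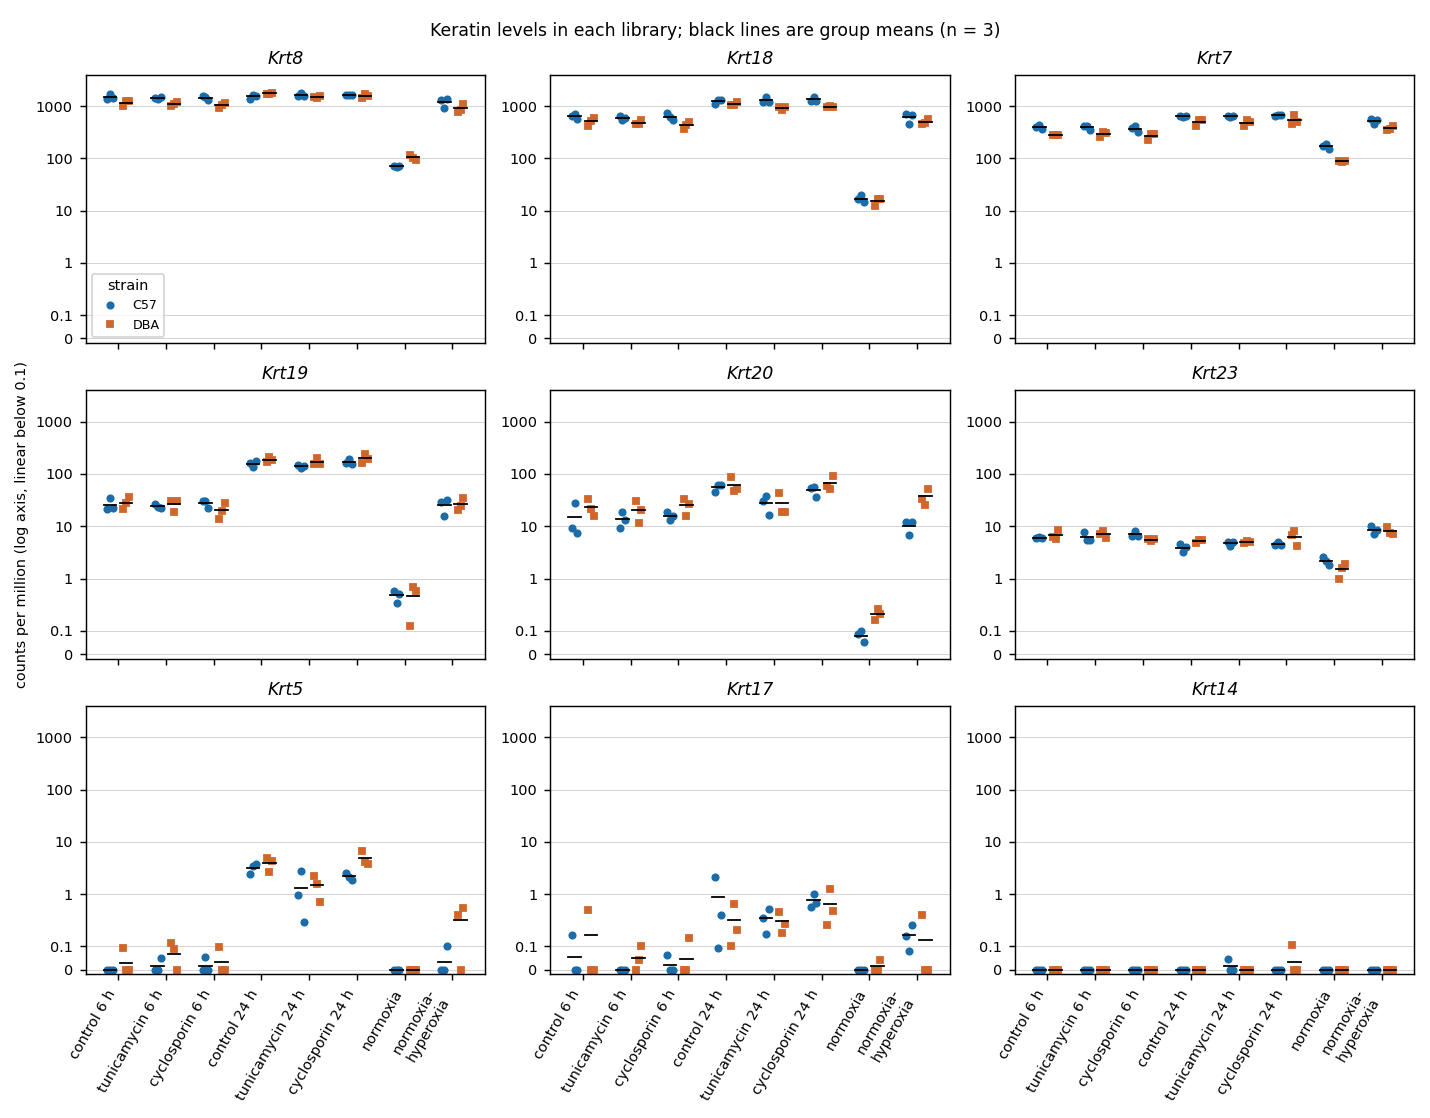
Level (CPM) of the 9 keratins in each of the 48 libraries (log axis, linear below 0.1), by condition, with C57 as circles, DBA as squares and group means (n = 3) as black lines. Every normoxia library of Krt8, Krt18, Krt7, Krt19, Krt20 and Krt23 lies below every control library of its strain, and Krt5 is seen mainly in the 24 h cultures of the first study arm.

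Krt8 was the most abundant member by length in 12 of the 16 groups, Krt18 in the 3 C57 groups of 24 h in the first study arm, and Krt7 in C57 normoxia. In 6 h controls its level was 1482 ± 165 CPM in C57 and 1163 ± 130.3 CPM in DBA (SD, n = 3). Krt18 came next, at 639 ± 76.4 and 509 ± 83 CPM, and then Krt7, at 397 ± 34.5 and 278 ± 1.1 CPM. On the length scale these C57 means were 757 ± 84.5, 445 ± 53.2 and 96.9 ± 8.44 CPM per kilobase. Krt19 and Krt20 were minor transcripts at that time, with C57 means of 25.9 ± 7.05 and 14.8 ± 11.3 CPM, and Krt23 lay at 6.01 ± 0.119 CPM. The basal keratins were near or at 0: Krt5 had 0 counts in all 3 C57 libraries, where 3 counts would be about 0.164 CPM. Kidney markers were at high level in these slices. The 7 proximal tubule markers (among them Slc34a1, Lrp2 and Cubn) summed to 2276 to 4627 CPM in C57 and 5782 to 6765 CPM in DBA 6 h controls. The 5 uroplakins that mark urothelium summed to at most 3.57 CPM in any library of the 16 groups.

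**Figure D2:**
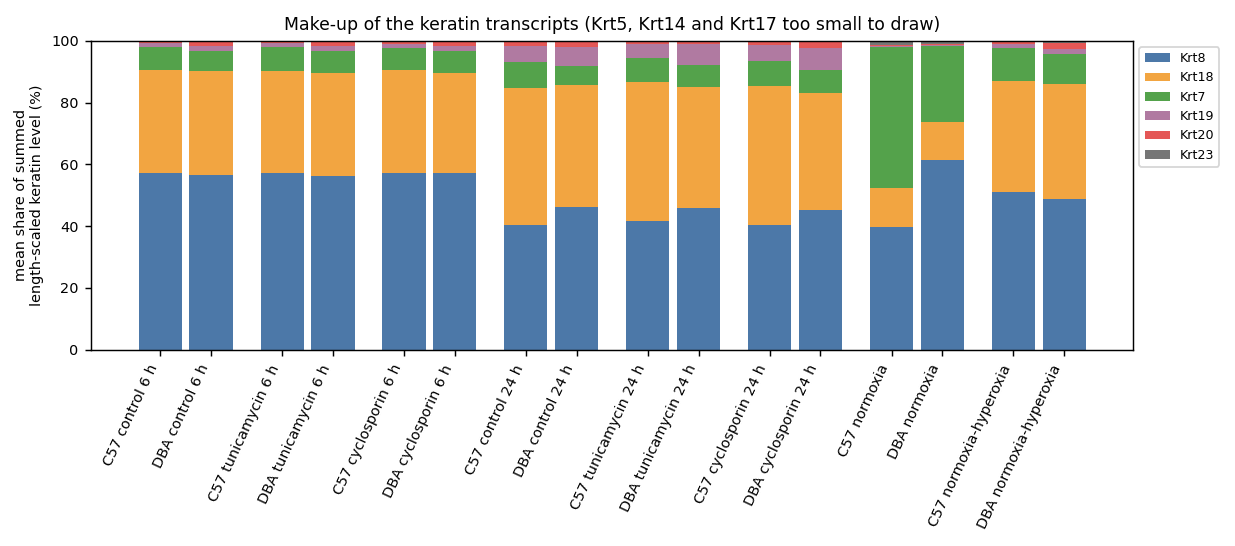
Mean share (n = 3) of each keratin in the summed length-scaled level of the 9 members, for the 16 groups. Krt8, Krt18 and Krt7 make up most of the total in each group, and the Krt7 share is largest in C57 normoxia, at 45.6%.

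The keratin make-up of untreated slices differed between 6 h and 24 h of culture. From 6 h to 24 h, Krt5, Krt7, Krt18, Krt19 and Krt20 rose and Krt23 fell, while Krt8 gave a log2 change of 0.09 (SE 0.09, adjusted p = 0.332). That is 5 higher and 1 lower of the 7 members tested, with Krt14 and Krt17 below the filter on low counts. Krt5 passed that filter only through the 24 h libraries, so it could come out only higher. The background was wide: 72% of all 16962 genes tested were called, and 34.7% were called higher, so a called keratin is not unusual here. The median log2 change was 0.81 over the 7 members and -0.02 over all genes tested. Scaling by total count alone, without edgeR's TMM factors, moved the median of all genes to 0.19, turned 5883 higher and 6338 lower calls into 7580 and 4969, and made Krt8 a call, at 0.31 (adjusted p = 0.00302).

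Krt19 had the largest rise of the abundant members. Its levels were 21.2, 34 and 22.6 CPM in the 3 C57 controls at 6 h and 161, 137 and 177 CPM at 24 h. In DBA they were 21.7, 27.5 and 35.7 CPM and then 168, 209 and 189 CPM. Every 24 h library was above every 6 h library in both strains, a 6.1-fold and 6.67-fold difference of means, and the log2 change was 2.46 (SE 0.15, adjusted p = 1.59e-08). Krt18 moved from 636, 717 and 564 to 1073, 1325 and 1279 CPM in C57 and from 418, 528 and 580.4 to 1053, 1041 and 1178 CPM in DBA. The 2 times did not overlap in either strain, with a log2 change of 0.81 (SE 0.10, adjusted p = 3.16e-06). Krt7 rose less, by 0.55 (SE 0.08, adjusted p = 1.25e-05) on the log2 scale, from 397 ± 34.5 to 639 ± 20.9 CPM in C57 and from 278 ± 1.1 to 495 ± 70.5 CPM in DBA. This was the smallest of the called rises in the controls. Krt8 went from 1340.4, 1664 and 1442 to 1368, 1636 and 1558 CPM in C57, where the times overlapped, and from 1013, 1224 and 1252 to 1688, 1719.6 and 1811 CPM in DBA, where they did not. Its log2 change was -0.24 (SE 0.12, adjusted p = 0.104) in C57 and 0.43 (SE 0.12, adjusted p = 0.00698) in DBA. In C57 the TMM-scaled change is thus opposite in sign to the means in CPM, 1482 and 1521. Krt20 rose by 1.46 (SE 0.34, adjusted p = 0.00262), to 56.8 ± 9.38 CPM in C57 and 62.6 ± 22.6 CPM in DBA. Krt23 had a log2 change of -0.70 (SE 0.13, adjusted p = 0.000257), from 5.93, 6.14 and 5.95 CPM to 4.58, 3.15 and 3.96 CPM in C57 and from 6.35, 5.59 and 8.35 to 4.84, 5.48 and 5.55 CPM in DBA, with no overlap in either strain. The 6 h libraries of Krt20 were spread widely, from 7.45 to 27.8 CPM in C57.

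Krt5, a basal-cell keratin, went from near nothing to a low level. It had 0, 0 and 0 counts in C57 and 2, 0 and 0 in DBA at 6 h, against 48, 73 and 47 in C57 and 93, 53 and 63 in DBA at 24 h. Against the floor of 3 counts per library, its mean level was at least 19.4-fold higher in C57 and at least 25.4-fold higher in DBA. The adjusted p was 3.52e-08, and the fitted log2 change of 7.61 depends on the prior count. Its usual partner Krt14 had no count in any control library. Krt17 had at most 13 counts in every control library but 1, replicate 1 of C57 at 24 h, which had 43. Among 5 cornified epidermis markers (Krt1, Krt10, Lor, Flg and Ivl), 2 rose with time as well: Ivl, which encodes the envelope protein involucrin, rose by 3.12 (SE 0.20, adjusted p = 8.25e-09) and Lor, which encodes loricrin, by 2.53 (SE 0.15, adjusted p = 2.02e-09). Krt10 fell by 0.83 (SE 0.16, adjusted p = 3.74e-04). The 5 summed to 7.50 to 12.8 CPM over all 6 h controls and to 25.9 to 38.1 CPM over all 24 h controls, with 1 of them at 0 in all C57 and 2 in all DBA libraries at 24 h. Their part in the Krt5 result was not tested. In bulk slices, fewer cells of a type and less RNA per cell cannot be told apart, for these and all later results.

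Markers of most kidney cell types moved the other way at the same time. All 7 proximal tubule markers, all 7 of collecting duct principal cells, all 5 of intercalated cells and all 5 of the loop of Henle and distal tubule fell from 6 h to 24 h in controls. The proximal tubule sum went from 2276 to 4627 CPM down to 348 to 558 CPM in C57. Of 3 parietal epithelium markers, 2 rose and 1 fell. The part of these shifts in the keratin changes was not tested.

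The pair Krt8 and Krt18 did not move in step. Krt8 counts per Krt18 count were 2.11, 2.32 and 2.56 in C57 and 2.42, 2.32 and 2.16 in DBA at 6 h. At 24 h they were 1.28, 1.23 and 1.22 in C57 and 1.6, 1.65 and 1.54 in DBA. The ratio was thus lower at 24 h in every library, and at 24 h every C57 library lay below every DBA library. On the length scale, type II members summed to 1.81 ± 0.155 times the type I members in C57 at 6 h and 0.949 ± 0.0275 times at 24 h (mean ± SD, n = 3).

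**Figure D3:**
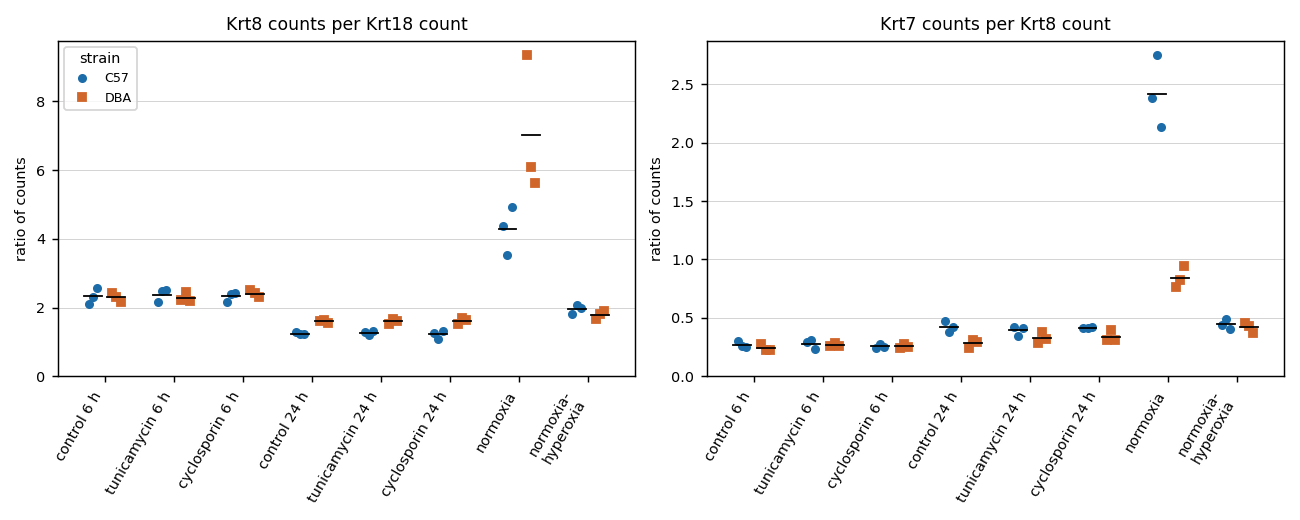
Ratio of Krt8 to Krt18 counts (left) and of Krt7 to Krt8 counts (right) in each library, by condition, with C57 as circles, DBA as squares and group means (n = 3) as black lines. Both ratios are highest under normoxia, where C57 and DBA libraries do not overlap.

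Under normoxia all 7 members tested were lower than in 24 h controls. Krt5 and Krt20 passed the filter on low counts only through the controls, so they could come out only lower. The smallest fall in mean CPM was 1.77-fold, for Krt23 in C57, while Krt5 in both strains and Krt20 in C57 fell to or below the floor of 3 counts, so that only lower bounds can be given. Of all 17375 genes tested, 82% were called and 39.7% were called lower. The median log2 change was -5.89 over the 7 members and 0.05 over all genes tested.

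Krt18 had 16.7, 19.5 and 14.5 CPM in C57 and 12.4, 17 and 16.7 CPM in DBA under normoxia, against means of 1226 ± 134 and 1091 ± 75.7 CPM in 24 h controls. No normoxia library came near a control, and the log2 change was -5.89 (SE 0.10, adjusted p = 2.6e-16). Krt8 had 72.7, 68.7 and 71.4 CPM in C57 and 116, 104 and 93.7 CPM in DBA. It fell 21.4-fold in C57 and 16.7-fold in DBA, with a mean log2 change of -3.97 (SE 0.08, adjusted p = 7.56e-16). The simple-epithelial pair therefore fell by unequal amounts: Krt8 counts per Krt18 count were 4.36, 3.52 and 4.93 in C57 and 9.35, 6.1 and 5.61 in DBA. Krt7 kept more of its level, with 173, 189 and 153 CPM in C57 and 88.2, 85.1 and 88.9 CPM in DBA and a log2 change of -1.93 (SE 0.07, adjusted p = 1.16e-12). In C57 its counts exceeded those of Krt8 in all 3 libraries, at 2.38, 2.75 and 2.14 Krt7 counts per Krt8 count, against 0.761, 0.822 and 0.948 in DBA. These counts are not scaled for length. Krt7 made up 45.6 ± 2.08% of the length-scaled keratin level in C57 normoxia and 8.18 ± 0.851% in C57 24 h controls (mean ± SD, n = 3). That share uses a Krt7 length of 4094 bases, the exons of its transcripts marked principal, added together if there is more than 1. Whether the 4094 bases are 1 transcript or several was not checked. With the union of all its exons, 7049 bases, Krt7 falls below Krt8 in C57 normoxia.

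Krt19 had 13, 7 and 10 counts in C57 and 3, 13 and 14 in DBA under normoxia, where each 24 h control had at least 2196. Its mean CPM was 333-fold lower in C57 and 408-fold lower in DBA, and the log2 change was -8.25 (SE 0.17, adjusted p = 3.24e-14). Krt20 had 2, 2 and 1 counts in C57 and 4, 5 and 5 in DBA. Its level was at least 393-fold lower in C57, against the floor of 3 counts, and 296-fold lower in DBA, with an adjusted p of 2.01e-11. Krt5 had 0 counts in all 6 normoxia libraries, at least 22.1-fold lower in C57 and at least 29.1-fold lower in DBA. Krt23 fell least, to 2.58, 2.18 and 1.84 CPM in C57 and 0.983, 1.56 and 1.93 CPM in DBA, a log2 change of -1.05 (SE 0.17, adjusted p = 3.3e-05). Against the 6 h controls the same normoxia libraries were lower for 6 of the 6 members tested, where 65.8% of all genes were called and 32.9% were called lower. Krt20 passed the filter on low counts only through the controls here too. That comparison shares the normoxia libraries with the one above. In it 3 of 3 podocyte, 3 of 3 parietal epithelium, 4 of 4 endothelial and 4 of 4 fibroblast and mural markers were lower and 5 of 7 proximal tubule markers higher, and their part was not tested. Its log2 changes were -3.92 for Krt8, -5.13 for Krt18, -1.42 for Krt7 and -5.84 for Krt19.

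**Figure D4:**
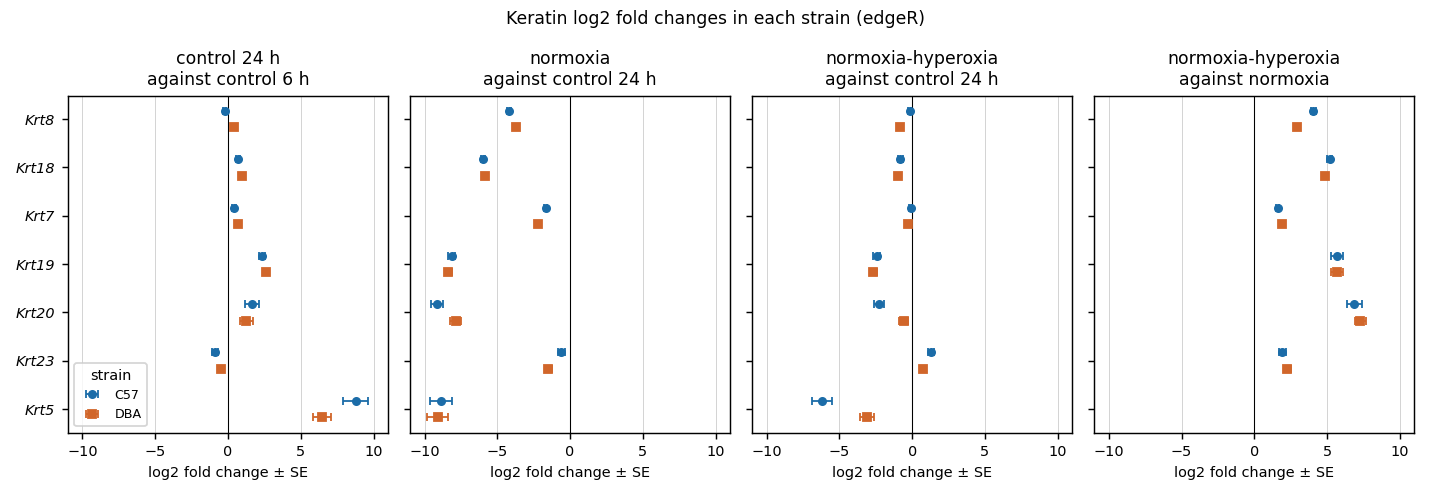
Log2 fold changes with standard errors from edgeR for 7 keratins in C57 (circles) and DBA (squares), in 4 comparisons. All points lie left of 0 for normoxia against 24 h controls and right of 0 for normoxia-hyperoxia against normoxia, where Krt5 was not tested; values for Krt5 depend on the prior count.

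Tubule markers did not fall with the keratins under normoxia. All 7 proximal tubule markers and 6 of 7 principal cell markers were higher than in 24 h controls, and the proximal tubule sum was 4500 to 7032 CPM in C57 and 11819 to 13379 CPM in DBA. The 3 parietal epithelium markers (Cldn1, Pax8 and Wt1) all fell, to a sum of 114 to 115 CPM in C57 from 294 to 338 CPM. Of 3 podocyte markers 2 were lower and 0 higher, and of 4 endothelial markers 2 were lower and 1 higher. The epidermis markers Ivl and Lor fell too, with log2 changes of -8.67 (SE 0.23) and -4.07 (SE 0.19), while Krt10 rose. The part of these shifts in the keratin changes was not tested.

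Under normoxia followed by hyperoxia the keratins were higher than under normoxia alone. All 6 members tested were called higher, where 73.5% of all genes were called and 37% were called higher. Krt20 passed the filter on low counts only through normoxia-hyperoxia, so it could come out only higher. The median log2 change was 4.25 over the 6 members and 0.02 over all genes tested. Krt20 rose most, by 7.08 (SE 0.32, adjusted p = 3.38e-10), to 11.8, 6.68 and 12.2 CPM in C57 and 33.1, 25.4 and 52.6 CPM in DBA. That fitted value rests on 1 to 5 Krt20 counts per normoxia library and depends on the prior count. Krt19 rose by 5.70 (SE 0.30, adjusted p = 4.41e-09) and Krt18 by 5.01 (SE 0.14, adjusted p = 9.16e-13). Krt8 reached 1287, 930.2 and 1343 CPM in C57 and 754, 852 and 1088 CPM in DBA, 16.7-fold and 8.6-fold above normoxia. Krt7 rose by 1.76 and Krt23 by 2.10. In both strains every library of these 6 genes was above every normoxia library. Proximal tubule markers went the other way, with all 7 lower and a sum of 134 to 184 CPM in C57 and 563 to 830 CPM in DBA. Markers of most other cell types rose: 3 of 3 for parietal epithelium, 3 of 3 for podocytes, 4 of 4 for endothelium, 3 of 3 for leukocytes, 3 of 4 for fibroblast and mural cells, 6 of 7 for principal cells, 4 of 5 for intercalated cells and 2 of 5 for the loop of Henle and distal tubule. The part of these shifts in the keratin changes was not tested.

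The levels reached were below those of the 24 h controls for most members. Against 24 h controls 6 of 7 members were called lower and 1 higher, where 68.2% of all genes were called and 34.1% were called lower. Krt5 passed the filter on low counts only through the 24 h controls. Krt19 differed by -2.56 (SE 0.18, adjusted p = 1.53e-07), with C57 libraries at 29.5, 15.6 and 31.6 CPM and DBA libraries at 20.9, 23.8 and 34.4 CPM. Krt18 differed by -0.90 (SE 0.11, adjusted p = 3.16e-06), Krt20 by -1.43 (SE 0.23, adjusted p = 0.000166) and Krt8 by -0.49 (SE 0.10, adjusted p = 0.000606). Of these 4, the libraries overlapped the 24 h controls for Krt20 in DBA, and in no other case. Of the markers, 5 of 7 proximal tubule and 2 of 3 parietal epithelium genes were lower, and all 7 principal cell, 5 intercalated cell, 5 loop of Henle and distal tubule and 3 podocyte genes were higher, with their part in the keratin changes not tested. Krt5 was at or near 0, with 0, 0 and 2 counts in C57 and 7, 0 and 11 in DBA. Krt23 was the member that was higher, at 9.96, 7.08 and 8.42 CPM in C57 and 9.54, 7.3 and 7.22 CPM in DBA, a log2 change of 1.04 (SE 0.14, adjusted p = 9.14e-06). Among members with more than 3 counts in all, it alone had its highest group mean in both strains in normoxia-hyperoxia. Its libraries there overlapped those of the next group, cyclosporin A at 6 h in C57 and tunicamycin at 6 h in DBA. Krt7 differed by -0.18 (SE 0.08, adjusted p = 0.049). DESeq2 (adjusted p = 0.0666), edgeR with RLE factors (adjusted p = 0.0744) and edgeR over all 48 libraries (adjusted p = 0.0759) did not call it. The call was lost when any of 8 of the 12 libraries was left out, namely C57 control replicates 1 and 3, DBA control replicates 2 and 3, C57 normoxia-hyperoxia replicates 2 and 3, and DBA normoxia-hyperoxia replicates 1 and 2, with adjusted p from 0.0591 to 0.112.

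Against 6 h controls 3 of 6 members were called, where 44.9% of all genes were. In the same comparison all 7 proximal tubule markers were lower, and 6 of 7 principal cell, 4 of 5 intercalated cell and 3 of 3 leukocyte markers were higher, with their part in the keratin changes not tested. Krt7 was higher by 0.38 (SE 0.08, adjusted p = 0.00102) with no overlap in either strain. Krt8 had a log2 change of -0.37 (SE 0.12, adjusted p = 0.0181), though its libraries overlapped in both strains. Krt18, Krt19 and Krt20 had log2 changes of -0.07 (SE 0.12, adjusted p = 0.661), -0.09 (SE 0.21, adjusted p = 0.764) and 0.04 (SE 0.36, adjusted p = 0.938), and their libraries overlapped the 6 h controls in both strains. Krt23 was higher by 0.35 (SE 0.13, adjusted p = 0.0447), without overlap in C57 and with overlap in DBA. The Krt23 call was lost without the filter on low counts (adjusted p = 0.0543) and with replicate number as a block (adjusted p = 0.0756). It was also lost without any of C57 control replicates 1, 2 and 3 or DBA control replicates 1 and 2. The same held for C57 normoxia-hyperoxia replicates 1 and 3 and DBA normoxia-hyperoxia replicate 1. With these libraries left out in turn, adjusted p ran from 0.0502 to 0.143.

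Neither drug gave a called keratin in edgeR's main test. For tunicamycin and cyclosporin A at 6 h and for cyclosporin A at 24 h, the share of all genes called was 0%, and 281, 734 and 1107 genes had an unadjusted p under 0.05. DESeq2 called 0, 51 and 22 genes in these, none of them a member, and over both strains 0 members had an unadjusted p under 0.05 in edgeR's test. For tunicamycin at 24 h, 1.38% of all genes were called and 0 of 8 members tested, 2 of which had an unadjusted p under 0.05, as did 2174 of all 16905 genes. The largest differences there were in Krt20 and Krt5. Krt20 had 30.04, 37.5 and 16.3 CPM in C57 and 44, 18.8 and 19.1 CPM in DBA with tunicamycin, against 45.9, 61.7 and 62.7 and 88.6, 47.7 and 51.6 CPM in controls. All 3 treated libraries of each strain lay below all 3 controls, with a log2 change of -1.10 (SE 0.29, adjusted p = 0.122). Krt5 had a log2 change of -1.26 (SE 0.38, adjusted p = 0.156), with 0.982, 2.74 and 0.293 CPM in C57 and 2.24, 1.55 and 0.7 CPM in DBA. DESeq2, which called 527 genes where edgeR called 233, called both, with adjusted p of 0.0168 for Krt20 and 0.0279 for Krt5. Krt20 was also called by edgeR over all 48 libraries (adjusted p = 0.0437) and with replicate number as a block (adjusted p = 0.0383). Without C57 tunicamycin replicate 2, which had the highest Krt5 of the treated libraries, edgeR called Krt5 (log2 change -1.77, adjusted p = 0.0299). Over the other 11 libraries left out in turn, neither gene was called. Krt8, Krt18, Krt7 and Krt19 differed from control by -0.06, -0.07, -0.01 and -0.14 on the log2 scale under tunicamycin at 24 h. In DBA alone, 3 of 8 members (Krt5, Krt8 and Krt20) had an unadjusted p under 0.05, and none was called. Under cyclosporin A at 24 h the same genes differed by -0.05, -0.04, 0.07 and 0.07, with standard errors of at most 0.09. In DBA alone, 2 of 8 members, Krt8 and Krt18, had an unadjusted p under 0.05, as they did for the difference in response between the strains; none was called.

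The strains differed in keratin level even without treatment. In 6 h controls Krt7, Krt8 and Krt18 were lower in DBA than in C57, 3 of 7 members where 26.2% of all genes were called. The log2 differences (DBA minus C57) were -0.66 (SE 0.11, adjusted p = 0.000464) for Krt7, -0.50 (SE 0.12, adjusted p = 0.00779) for Krt8 and -0.48 (SE 0.14, adjusted p = 0.02) for Krt18. Markers differed between the same libraries: the proximal tubule sum was higher in DBA, as given above. The loop of Henle and distal tubule sum was 11215 to 12658 CPM in C57 and 6629 to 8992 CPM in DBA, and the podocyte sum 1791 to 1874 and 1328 to 1515 CPM. The part of these markers in the strain differences was not tested. Krt7 had 406, 426 and 358 CPM in C57 and 277, 278 and 279 CPM in DBA, with no overlap. The Krt18 call was lost without C57 replicate 2 or DBA replicate 1, with adjusted p from 0.0904 to 0.0913, and with scaling by total count (adjusted p = 0.0720). At 24 h, 1 of 7 members was called, Krt7, where 22.2% of all genes were, with a difference of -0.40 (SE 0.11, adjusted p = 0.0144). The proximal tubule sum was 348 to 558 CPM in C57 and 863 to 1904 CPM in DBA at that time, and the podocyte sum 1084 to 1309 and 598 to 888 CPM, with their part not tested. The Krt7 call was lost without C57 replicate 1 or DBA replicate 1, with adjusted p from 0.0520 to 0.0720.

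Krt7 and Krt8 differed between the strains in opposite directions under normoxia. The log2 difference (DBA minus C57) was -0.92 (SE 0.10, adjusted p = 5.65e-06) for Krt7 and 0.61 (SE 0.10, adjusted p = 0.000178) for Krt8, 2 of 7 members where 47.2% of all genes were called. Markers also differed between the strains under normoxia. The proximal tubule sum was higher in DBA, as given above. The loop of Henle and distal tubule sum was 11160.2 to 16086 CPM in C57 and 3811 to 5205 CPM in DBA, and the principal cell sum 981 to 1032 and 461 to 609 CPM. The part of these markers in the keratin differences was not tested. The normoxia response itself differed between strains for both. The fall from 24 h controls was larger in DBA for Krt7, with an interaction of -0.49 (SE 0.14, adjusted p = 0.0302), and smaller in DBA for Krt8, with 0.48 (SE 0.14, adjusted p = 0.03), in a test where 17% of all genes were called. The Krt8 call was lost by total count (adjusted p = 0.0757) and over all 48 libraries (adjusted p = 0.143). With replicate number as a block, neither interaction was called (adjusted p = 0.0534 for Krt7 and 0.0642 for Krt8). The Krt7 call was lost without C57 control replicates 1 or 2, C57 normoxia replicates 1 or 2, or DBA normoxia replicates 2 or 3 (adjusted p from 0.0527 to 0.0774). The Krt8 call was lost without C57 control replicates 2 or 3, any DBA control, C57 normoxia replicates 2 or 3, or DBA normoxia replicates 1 or 2 (adjusted p from 0.0543 to 0.158).

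The difference in Krt8 was larger against the other 2 references. From normoxia to normoxia-hyperoxia Krt8 rose by 4.05 in C57 and 2.93 in DBA, an interaction of -1.13 (SE 0.21, adjusted p = 0.00262), in a test where 18.2% of all genes were called. From 6 h controls to normoxia its log2 changes were -4.46 in C57 and -3.37 in DBA, an interaction of 1.09 (SE 0.19, adjusted p = 0.00718), where 3.66% of all genes were called. These comparisons share the normoxia libraries. The change with time in controls gave 0 called members for the strain interaction, where 0.69% of all genes were called, while DESeq2, edgeR over all 48 libraries and edgeR without the filter each called 1 member. For Krt8, the 1 member with an unadjusted p under 0.05, that interaction was 0.66 (SE 0.17, adjusted p = 0.106).

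Under normoxia-hyperoxia 4 of 7 members differed between strains, where 23.7% of all genes were called. Krt20 was higher in DBA by 1.79 (SE 0.33, adjusted p = 0.00307), and every DBA library was above every C57 library. The proximal tubule sum was higher in DBA here too, and the principal cell sum was 1321 to 1610.2 CPM in C57 and 849 to 1237 CPM in DBA, with their part not tested. Krt5 was higher in DBA by 3.33 (SE 0.93, adjusted p = 0.018), from the few counts given above, and this value depends on the prior count. Krt7 and Krt8 were lower in DBA, with differences of -0.60 (SE 0.11, adjusted p = 0.00136) and -0.51 (SE 0.14, adjusted p = 0.0188). The Krt5 call was lost without C57 replicates 1 or 2 or DBA replicates 1 or 3 (adjusted p from 0.0520 to 0.0861). The Krt8 call was lost by total count (adjusted p = 0.0638) and without C57 replicates 1 or 3 or DBA replicates 1 or 2 (adjusted p from 0.0702 to 0.0833). Without C57 replicate 3, the only C57 library with Krt5 counts, the Krt5 difference was 5.90. The response from 24 h controls to normoxia-hyperoxia gave 0 called members for the strain interaction, where 1.43% of all genes were called. In edgeR's test 3 members had an unadjusted p under 0.05, DESeq2 and edgeR over all 48 libraries each called 1, and edgeR without the filter on low counts called 3. Krt20 gave 1.71 (SE 0.45, adjusted p = 0.1).

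In both strains, Krt18 and Krt19 were highest in the 24 h cultures of the first study arm, lower at 6 h and in normoxia-hyperoxia, and lowest in normoxia. The 3 24 h groups overlapped their neighbours in that order, except that all DBA control libraries of Krt18 lay above all of cyclosporin A. Krt7 had the same order, but its normoxia-hyperoxia libraries stood apart from both the 24 h and the 6 h groups. In C57, Krt8 libraries of each group overlapped those of the next from 24 h tunicamycin down to normoxia-hyperoxia, and only normoxia stood apart. Over the 16 group means of log2 CPM, Krt8 and Krt18 had the highest correlation of any 2 members (r = 0.98). Krt18 had r = 0.95 with both Krt19 and Krt20, while Krt7 and Krt23 had r = 0.60 and Krt5 and Krt23 r = -0.01. All these points share libraries, and normoxia is far from the other groups in most members.

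The genes most like each member over the same 16 group means were found among 12545 genes with a mean log2 CPM of at least 1. They are the highest of many correlations, with normoxia far from the other groups, and shared regulation was not tested. For Krt18 they were Myh9 (r = 0.997), a non-muscle myosin heavy chain, Lgals3 (galectin-3) and Adm (adrenomedullin). For Krt8 they were Actn4, an actin crosslinker, Sgsm3 and Bcl2l1, each with r = 0.99. Krt7 was closest to Myo1d, Nectin2 and Tjp1, the last 2 being proteins of cell junctions. Krt19 was closest to Slc16a3, a lactate transporter, Vat1 and Kdm5b. Krt20 was closest to Dusp5, Itpr3 and Hk2 (hexokinase 2), each with r = 0.98, and Krt23 to Ocln (occludin), Sphk1 and Eps8l2, each with r = 0.97.

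Genes that anchor or accompany keratin filaments were read from lists. Their counts stand against the shares of all genes given above: 72% called with time in controls, 82% called and 39.7% called lower for normoxia against 24 h controls, 73.5% called and 37% called higher for normoxia-hyperoxia against normoxia, and 68.2% called for normoxia-hyperoxia against 24 h controls. Desmosome and plakin genes link keratins to cell junctions, and 13 of 16 were tested. From 24 h controls to normoxia 2 rose and 11 fell, with a median log2 change of -1.02. The log2 change was -4.09 (SE 0.22) for Eppk1 (epiplakin), -2.68 (SE 0.07) for Plec (plectin) and -2.13 (SE 0.16) for Dsp (desmoplakin). From normoxia to normoxia-hyperoxia 11 rose and 1 fell, Plec rising from 93.8 to 678 CPM. Against 24 h controls normoxia-hyperoxia had 5 higher and 0 lower, and with time in controls 5 rose and 4 fell. Of 7 hemidesmosome genes, which join basal keratins to the basement membrane, 5 rose and 1 fell with time in controls. Lamb3, a laminin chain, rose by 4.27 (SE 0.21), from 1.45 to 34.3 CPM, and Itgb4 by 1.21 (SE 0.13). All 7 fell from 24 h controls to normoxia. From normoxia to normoxia-hyperoxia 3 rose and 2 fell, and against 24 h controls normoxia-hyperoxia had 2 higher and 5 lower.

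Of the other intermediate filament genes, 10 of 11 tested fell under normoxia and none rose, with log2 changes of -2.32 (SE 0.07) for Vim (vimentin) and -2.40 (SE 0.10) for Nes (nestin). Of 12 epithelial transcription factor genes tested, 2 rose and 9 fell. In this comparison 82% of all genes were called and 39.7% were called lower, as given above. Klf5 fell by 6.28 (SE 0.16), from 116 to 1.25 CPM. Sox9 fell by 4.63 (SE 0.12), from 51.9 to 1.71 CPM. From normoxia to normoxia-hyperoxia 9 rose and 1 fell, Sox9 rising by 5.10 (SE 0.14) and Klf5 by 5.33 (SE 0.25). Among 44 other protein-coding keratin genes only 3 or 4 passed the filter on low counts in any of the 6 comparisons of time and oxygen. Of these, Krt10 rose under normoxia by 1.00 (SE 0.13), and Krt80 was higher in normoxia-hyperoxia than in 24 h controls by 1.40 (SE 0.09). For normoxia against 24 h controls, 2 of the 4 tested were higher and 1 lower. Normoxia-hyperoxia had 1 higher and 1 lower of 4 against 24 h controls, and 1 higher and 2 lower of 3 against normoxia. In the drug comparisons 1 gene of these lists was called, Macf1, with a log2 change under tunicamycin at 24 h of -0.28 (SE 0.06, adjusted p = 0.0415).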

How the data were processed

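The authors deposited 1 table of raw read counts per gene for 48 libraries, and no normalized values were used. Per the labels' protocols, RNA was extracted with a Qiagen kit and made into stranded mRNA libraries. The submitters' processing notes name bcl2fastq 2.20.0, FastQC 0.11.8, STAR 2.7.9a, featureCounts 1.5.1 and build GRCm38. The counting settings, including strand and shared reads, are not given in the sources used here.

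Each comparison used the 12 libraries of its 2 conditions in both strains. Counts were filtered with filterByExpr, scaled by TMM and tested in edgeR 4.0.16 by the robust quasi-likelihood test (R 4.3.3), with Benjamini-Hochberg adjustment over all genes tested. Contrasts were the mean over strains, each strain, the strain difference and the difference in response. Length-scaled CPM used the exons of GENCODE M21 transcripts marked principal. Where a gene has more than 1 such transcript, their lengths were added, so its length may be too long. A floor of 3 counts per library replaced lower group values in folds, and correlations used log2 CPM with 0.5 added. The floor covers counting error only.

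The 9 members and the lists were chosen with earlier results of these data known. All members are named. From each list at most 3 genes per comparison could be named, those called with the largest log2 change and a mean log2 CPM of at least 1. For likeness the 3 genes with the highest correlation are named, leaving out members and predicted or unnamed genes. Alternatives were DESeq2 1.42.0, other scaling factors, total counts, no filter, all 48 libraries in 1 fit, a replicate block and leaving out each library. No library was left out of the main results, and no 2 libraries held identical counts.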

Additional observations from a re-analysis of the deposited data

Results flagged for a closer look

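In 4 cases the response of a keratin differed between the strains by edgeR's interaction test, given as the DBA minus the C57 log2 change. For normoxia against 24 h controls the difference was -0.49 for Krt7 and 0.48 for Krt8. For Krt8 it was also -1.13 for normoxia-hyperoxia against normoxia and 1.09 for normoxia against 6 h controls. All 4 share the normoxia libraries. Groups of 3 libraries were not searched for a library far from the others.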

How the results depend on the processing

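Of the single-gene values under the 6 alternatives besides leaving out a library, 305 kept their direction and side of the threshold, 14 lost a call and 5 gained one. With a library left out, called keratins numbered 6 to 7 for time in controls, 7 to 8 for normoxia and 6 to 8 for normoxia-hyperoxia against 24 h controls, 2 to 3 for normoxia-hyperoxia against 6 h controls and 2 to 3 for the strain difference in normoxia. The counts that moved by over 1.5 times were these. Tunicamycin at 24 h had 0 called, against 2 with DESeq2, 1 with all 48 libraries in 1 fit, 1 with the replicate block and 0 to 1 with a library left out. The strain difference in 6 h controls had 3 called and 1 with the replicate block, or 2 to 3 with a library left out. In 24 h controls it had 1, against 0 with the block and 0 to 1 with a library left out. In normoxia it had 2, and 4 with the block, and in normoxia-hyperoxia 4, or 2 to 4 with a library left out. With the block, a strain difference within a condition compares the fitted levels of replicate 1 of each strain. The block counts of such strain differences are therefore no check of these calls. The strain difference in response had 0 called with time in controls, and 1 without the filter, with DESeq2 or with all 48 libraries. For normoxia against 24 h controls it had 2, against 1 by total count, 0 with the block and 0 to 2 with a library left out. For normoxia-hyperoxia against 24 h controls it had 0, against 3 without the filter, 1 with DESeq2, 1 with all 48 libraries and 0 to 1 with a library left out. For normoxia-hyperoxia against normoxia it had 1, and 2 by total count. The cause of these shifts was not tested. With a library left out, log2 changes of normoxia-hyperoxia against 6 h controls ran from -0.14 to 0.0090 for Krt18, -0.22 to 0.045 for Krt19 and -0.13 to 0.47 for Krt20, so their direction is not settled. The order of members by length held in 14 of 16 groups with TMM scaling and in 11 of 16 with union exon lengths, an alternative chosen after seeing the data. By total count alone, 7359 higher and 6891 lower calls became 5935 and 8360 for normoxia against 24 h controls (median of all genes -0.22), and 5881 and 5891 became 4699 and 7347 for normoxia-hyperoxia (median -0.17). The labels do not say that a replicate number marks a shared animal or day, and in no comparison did all 6 same-numbered pairs have deviations correlated over 0.1, so the numbers were not taken as pairing. Up to 5 of 6 pairs were over 0.1 (normoxia against 6 h controls, and tunicamycin at 6 h), mean correlations ran from 0.01 to 0.18, and 2 to 6 of 6 libraries of a comparison correlated best with their own number, a hint from the data only. With the replicate block, Krt20 under tunicamycin at 24 h was called (adjusted p = 0.0383). Calls not made with it were Krt23 in normoxia-hyperoxia against 6 h controls (adjusted p = 0.0756) and 2 normoxia interactions. Those were Krt7 (adjusted p = 0.0534) and Krt8 (adjusted p = 0.0642). As strain differences, the block fit gave adjusted p of 0.0950 for Krt8 and 0.0808 for Krt18 at 6 h, and 0.0573 for Krt7 at 24 h. These compare replicate 1 only, so they do not test the strain calls, though they are among the 14 lost calls above. The count of 3 libraries a group and, for Krt5, Krt14 and Krt17, the few counts limit precision.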

Other observations

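Krt17, a keratin of stratified epithelia and injured skin, was below the filter on low counts in the comparisons of time and oxygen and was detected unevenly. It had 230 counts in all, of which 43 were in replicate 1 of the C57 24 h controls, where the other replicates had 2 and 5. Under cyclosporin A at 24 h it had 13, 16 and 16 counts in C57 and 5, 26 and 9 in DBA. Krt14 had 1 count in C57 with tunicamycin at 24 h and 2 in DBA with cyclosporin A at 24 h, each in a single library, and no count in the other 46 libraries.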
